A study of Homo sapiens with 15 samples.

Results

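Androgens are made and unmade within prostate cells by a small set of enzymes, and 9 genes for such enzymes were followed here among the 17272 genes measured in LNCaP cells. They were taken by name, for the reactions they are known for, and chosen with earlier results of these data known. They are SRD5A1 and SRD5A3 of the 5α-reductase family, the hydroxysteroid dehydrogenases HSD17B6, HSD17B10 and HSD17B11, and the related dehydrogenase DHRS7. The others are the aldo-keto reductase AKR1C3, the steroid sulfatase STS and the electron donor POR. Each of the 9 had a row in the expression table. LNCaP cells are an established human prostate cancer line that responds to androgen. All cells were kept without androgen in charcoal-stripped serum for 2 days and then treated for 22 h. In 10 libraries the treatment was 1 nM R1881, a synthetic androgen that cells metabolise little, together with DMSO, the solvent. In 5 libraries it was the same 1 nM R1881 together with 2 µM enzalutamide, a drug that blocks androgen signalling. Every library therefore came from androgen-treated cells of a single cell line, and no library without androgen entered the comparison.

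In the classical route, the sulfated adrenal steroid dehydroepiandrosterone is first freed of its sulfate and oxidised to androstenedione, which is then reduced at carbon 17 to testosterone. Steroid 5α-reductases convert testosterone to dihydrotestosterone, the strongest natural androgen. Other dehydrogenases convert dihydrotestosterone to weak androstanediols or return it from them, and glucuronidation removes the products from the cell.

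Polyadenylated RNA was sequenced, and between 15830745 and 25416052 reads per library fell on genes. Values are CPM, reads per 1000000 with library sizes as the authors rescaled them. As a check of the treatment, the androgen-induced genes KLK3, KLK2, TMPRSS2 and FKBP5 were lower with enzalutamide, with log2 fold changes from -3.55 (KLK3) to -4.99 (FKBP5). All 9 luminal prostate markers were detected, 6 of them lower and 3 higher with enzalutamide, and their sum, which includes the androgen-induced KLK3, KLK2 and TMPRSS2, was 7906 to 9192 CPM with R1881 and 3673 to 3798 CPM with R1881 + enzalutamide. Markers of other cells were scarce: of 13 markers for basal cells, fibroblasts, endothelium and leukocytes, 4 had a row (KRT14, COL1A1, LUM and VWF). The summed fibroblast markers were 4.61 to 8.55 CPM with R1881 and 8.89 to 13.9 CPM with enzalutamide. KRT14, the basal marker with a row, had 0.706 to 1.44 and 0 to 0.279 CPM, and VWF, the endothelial one, 2.08 to 2.836 and 2.839 to 3.35 CPM. The part of these markers in the results below was not tested. By their labels, libraries 51 to 55 and 71 to 75 had R1881 alone and libraries 81 to 85 had enzalutamide as well. What these numbers stand for is not said, so this numbering and the treatment cannot be told apart. The methods of the study speak of biological replicates, but assign their numbers to the treatments the other way about. The sample labels were followed here, and the low KLK3, KLK2, TMPRSS2 and FKBP5 lay in the libraries labelled enzalutamide. Separate cultures are not named, so p-values measure the spread between these libraries.

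With enzalutamide, 5 of the 9 enzyme genes were lower (STS, SRD5A1, HSD17B11, POR and DHRS7), AKR1C3 was higher, and SRD5A3, HSD17B6 and HSD17B10 did not pass the test. In median CPM, STS fell by 43.0%, HSD17B11 fell by 35.8% and SRD5A1 fell by 35.3%, and AKR1C3, one of the 2 scarcest of the set, rose 2.80-fold in mean CPM. The test was limma on log2(CPM + 0.5) with Benjamini-Hochberg adjustment over all 17046 genes tested, and fold changes are given on that same scale, which makes those of scarce genes smaller than the change in reads. By the same test 62.5% of all genes differed between the treatments, 32.7% lower and 29.8% higher. The 6 of 9 (66.7%) among the enzymes is near that share. The median log2 fold change was -0.13 over the 9 enzymes and -0.01 over all genes tested. When library totals were instead set to 1000000, which moved all genes up by 0.091 on the log2 scale at the median and changed the split from 52.3% to 39.2% lower among the genes called, the enzymes split into 3 lower (STS, SRD5A1, HSD17B11) and 3 higher (AKR1C3, SRD5A3, HSD17B6), while POR and DHRS7 no longer passed. In bulk RNA, fewer cells of a kind and less RNA per cell cannot be told apart.

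**Figure D1:**
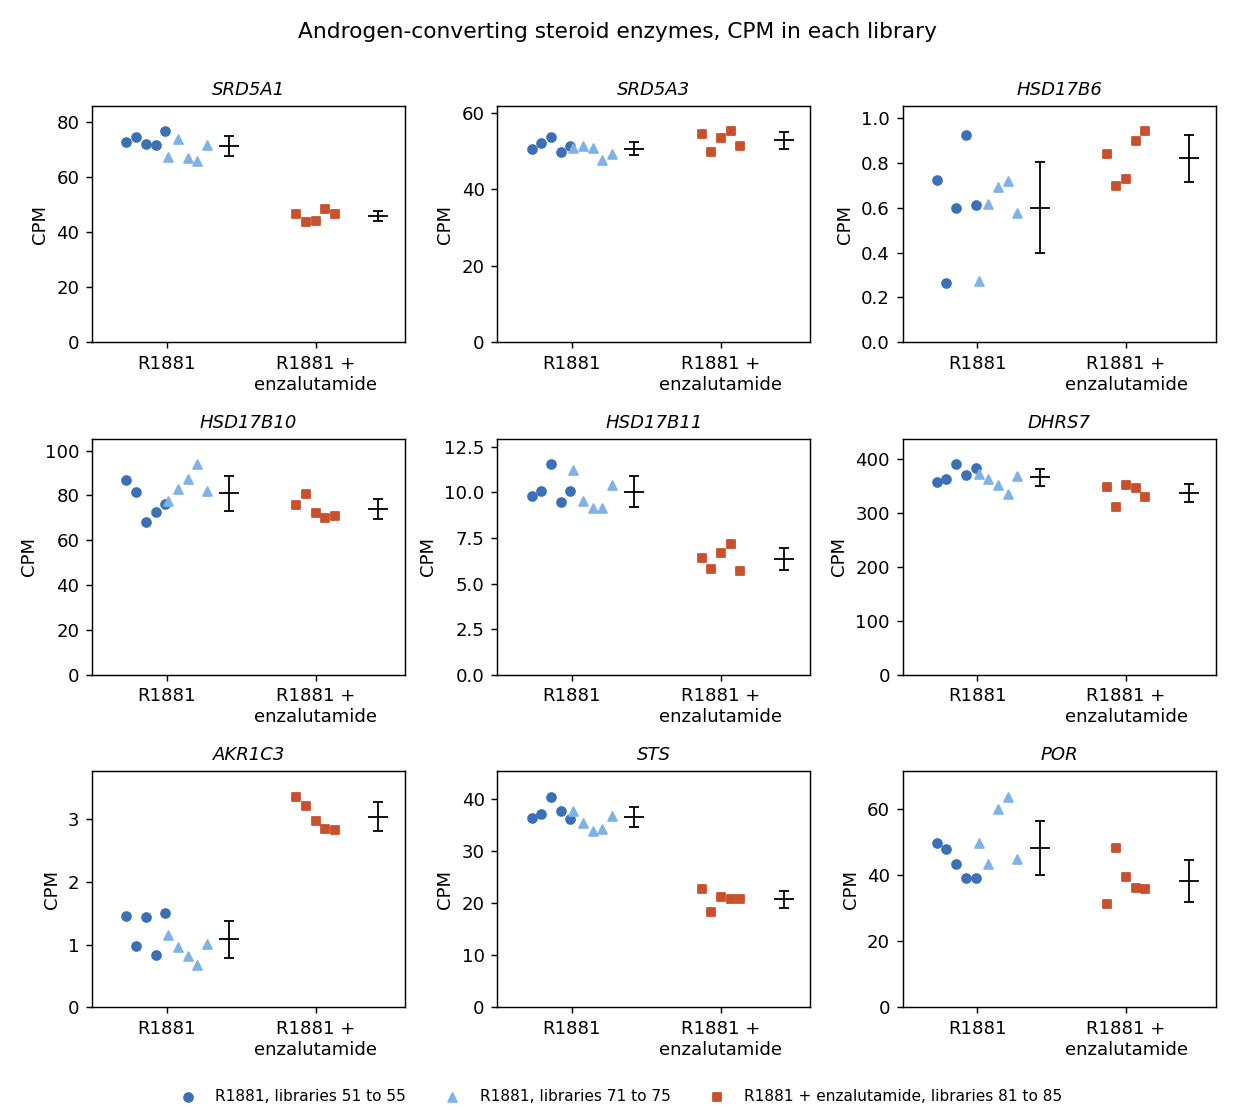
CPM of each enzyme gene in each library on a linear axis that starts at 0, with R1881 libraries 51 to 55 as dark circles, R1881 libraries 71 to 75 as light triangles and R1881 + enzalutamide libraries as squares; the black bar is the mean and its whiskers the SD (n = 10 and n = 5). SRD5A1, HSD17B11 and STS were lower in every enzalutamide library than in any R1881 library, AKR1C3 was higher in every one, and the groups overlapped for the other 5 genes.

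The 250 bases before a transcription start listed by RefSeq are shown for genes whose levels moved apart within a family or moved most: SRD5A1 beside its relative SRD5A3, then HSD17B11, AKR1C3 and STS. They are taken from RefSeq (GRCh38.p14), whose table held promoters for 6 of the 9 genes. POR, HSD17B6 and DHRS7 had no entry. Sequences run 5′ to 3′ on the strand of the gene, and capitals mark matches, on either strand, to the androgen response core motif TGTTCT, the GC box GGGCGG, the CCAAT box CCAAT or the TATA box TATAAA. The last 13 bases of the SRD5A1 window and 29 of the SRD5A3 window lie in exons of the GENCODE annotation, which starts these genes further upstream. The AKR1C3 and STS windows belong to starts inside the genes as annotated there. None of these motifs was seen to overlap another in the windows shown.
SRD5A1, chr5:6633190-6633439, plus strand: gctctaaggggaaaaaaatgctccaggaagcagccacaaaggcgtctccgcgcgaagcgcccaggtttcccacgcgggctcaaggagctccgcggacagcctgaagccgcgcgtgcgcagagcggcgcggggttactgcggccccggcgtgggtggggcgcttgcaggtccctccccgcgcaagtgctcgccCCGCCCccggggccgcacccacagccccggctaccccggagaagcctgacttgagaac
SRD5A3, chr4:55345992-55346241, plus strand: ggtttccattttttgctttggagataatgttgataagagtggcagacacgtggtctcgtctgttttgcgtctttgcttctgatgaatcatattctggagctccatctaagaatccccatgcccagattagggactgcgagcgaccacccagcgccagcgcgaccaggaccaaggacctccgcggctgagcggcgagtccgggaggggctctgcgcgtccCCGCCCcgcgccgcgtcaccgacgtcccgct
HSD17B11, chr4:87391189-87391438, minus strand: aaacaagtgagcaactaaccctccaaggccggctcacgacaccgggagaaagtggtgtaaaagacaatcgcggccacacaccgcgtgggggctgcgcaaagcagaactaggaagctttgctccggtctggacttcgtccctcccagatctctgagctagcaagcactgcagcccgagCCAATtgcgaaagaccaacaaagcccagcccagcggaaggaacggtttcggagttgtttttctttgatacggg
AKR1C3, chr10:5094164-5094413, plus strand: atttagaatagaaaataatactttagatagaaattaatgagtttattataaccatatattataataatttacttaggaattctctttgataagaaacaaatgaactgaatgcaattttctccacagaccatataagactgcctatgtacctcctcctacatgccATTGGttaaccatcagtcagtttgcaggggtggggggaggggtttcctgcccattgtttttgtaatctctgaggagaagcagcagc
STS, chrX:7251994-7252243, plus strand: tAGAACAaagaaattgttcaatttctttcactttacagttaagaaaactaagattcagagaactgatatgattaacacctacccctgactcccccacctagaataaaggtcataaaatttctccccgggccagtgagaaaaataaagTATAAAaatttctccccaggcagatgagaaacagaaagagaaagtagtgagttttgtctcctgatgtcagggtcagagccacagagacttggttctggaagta

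The capitals in SRD5A1 and SRD5A3 are a GC box each, read on the opposite strand, that begins 58 and 31 bases before the start. The GC box was found in 42.6% of the 35116 promoters of the table. HSD17B11 and AKR1C3 each hold a CCAAT box, 73 and 86 bases before the start, as do 32.0% of all promoters. A second AKR1C3 promoter in the table holds CCAAT and TATAAA, and both tabulated HSD17B10 promoters hold GGGCGG and CCAAT. Another of the 5 windows tabulated for STS holds TGTTCT 105 bases before its start. The STS window shown holds TGTTCT on the opposite strand 249 bases before the start and TATAAA 103 bases before it. The remaining windows tabulated for STS hold neither motif. TGTTCT was present in 12.4% and TATAAA in 10.7% of all promoters. These shares count single windows, so a gene with several windows has more chances of a match. The full androgen response element, TGTTCT preceded by its reverse complement with 3 bases between them, was found in 1 promoter of the table and in none of these genes. These matches describe the letters of the windows and say nothing of binding.

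Desulfation is the entry step, carried by STS, which removes sulfate from dehydroepiandrosterone sulfate and from estrone sulfate. The gene lies on chromosome X (GRCh38, 7147237 to 7804358, plus strand, 11 exons in its canonical transcript). With R1881 it ranged from 33.96 to 40.5 CPM (median 36.7). With enzalutamide the replicates 1 to 5 had 22.9, 18.3, 21.2, 20.8 and 20.9 CPM. Every enzalutamide library lay below every R1881 library, and the gap between the groups was wider than the range within either. The log2 fold change was -0.80 (SE 0.051, 95% confidence interval -0.91 to -0.70, limma adjusted p = 1.32e-11), the largest fall among the 9. A two-sided exact permutation test over the 3003 possible regroupings gave p = 0.000333, the smallest it can give.

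The genes of the sulfate pathway around STS moved in both directions. Of 12 other genes on the list for sulfation and desulfation 9 were tested, and 3 were lower and 4 higher. That is 77.8% called, where 62.5% of all genes were. PAPSS1, which makes the sulfate donor, was lower (130 ± 5.58 against 94.9 ± 3.57 CPM, SD, n = 10 and 5, log2 fold change -0.45). SULT2B1, a sulfotransferase for steroids, was higher (4.70 ± 0.808 against 6.20 ± 0.510 CPM, log2 fold change 0.38). SUMF1, which activates sulfatases, was higher as well (46.5 ± 0.824 against 60.2 ± 2.15 CPM, log2 fold change 0.37). The gene for the sulfatase itself was thus lower, and the gene for its activating enzyme higher, in the same libraries.

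Reduction at carbon 17 to testosterone is carried by AKR1C3, the type 5 17β-hydroxysteroid dehydrogenase, on chromosome 10 (5035354 to 5107686, plus strand, 9 exons). It was scarce in these cells. With R1881 it ranged from 0.675 to 1.51 CPM (median 0.993), from 13 to 32 reads per library. With enzalutamide the replicates 1 to 5 had 3.35, 3.21, 2.96, 2.83 and 2.82 CPM, from 63 to 72 reads. All enzalutamide libraries were above all R1881 libraries, and the gap was wider than the range within either group. The log2 fold change was 1.18 (SE 0.122, 95% confidence interval 0.92 to 1.43, limma adjusted p = 3.90e-08, two-sided exact permutation p = 0.000333). On the reads themselves, without a pseudocount of that size, edgeR gave 1.53. AKR1C3 was the single enzyme of the 9 that passed the limma test as higher, though HSD17B6 and SRD5A3 did so in some alternatives.

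Its close relatives on the same chromosome were higher too. AKR1C1, which inactivates progesterone and reduces dihydrotestosterone, had 1.55 ± 0.392 CPM with R1881 and 4.19 ± 0.291 CPM with enzalutamide (log2 fold change 1.21). AKR1C2, which reduces dihydrotestosterone to 3α-androstanediol, had 1.95 ± 0.401 and 4.54 ± 0.440 CPM (log2 fold change 1.05). For either gene the enzalutamide libraries all lay above the R1881 libraries. The family shares sequence: 5.23% of the 50-base stretches in AKR1C3 transcripts occurred in another gene, against 35.96% in AKR1C2, so reads of AKR1C1 and AKR1C2 may have been divided between them while AKR1C3 was mostly distinct. Of the 8 aldo-keto reductases listed, 4 were tested, with 3 higher, none lower, and AKR1A1 not called (log2 fold change -0.10, adjusted p = 0.0843, limma). Thus 75.0% were called, where 62.5% of all genes were. AKR1C4 did not reach the minimum of 0.5 CPM on average, and AKR1B1, AKR1B10 and AKR1D1 had no row and were not analysed here.

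The 5α-reductases behaved differently from each other. SRD5A1, the type 1 enzyme that reduces testosterone and androstenedione, lies on chromosome 5 (6633427 to 6674386, plus strand, 5 exons). With R1881 it ranged from 66.1 to 76.8 CPM (median 71.9), and with enzalutamide the replicates 1 to 5 had 46.6, 43.9, 44.2, 48.4 and 46.5 CPM. The highest enzalutamide library was well below the lowest R1881 library. The log2 fold change was -0.63 (SE 0.040, 95% confidence interval -0.72 to -0.55, limma adjusted p = 1.74e-11, two-sided exact permutation p = 0.000333).

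SRD5A3, on chromosome 4 (55346213 to 55373100, plus strand, 5 exons), shares the family's name, but its best established task is the reduction of polyprenol to dolichol, the lipid on which N-linked sugar chains are built. It ranged from 47.6 to 53.7 CPM with R1881 (median 50.8), and the enzalutamide replicates had 54.6, 49.8, 53.4, 55.2 and 51.4 CPM. The groups overlapped, with 7 of 10 R1881 libraries inside the enzalutamide range. Its log2 fold change of 0.06 did not pass (SE 0.037, 95% confidence interval -0.02 to 0.14, limma adjusted p = 0.172), and it passed as higher with library totals of 1000000 (0.15, adjusted p = 0.000582) and with edgeR (0.10, adjusted p = 0.0113). Over the alternatives, single libraries left out aside, its adjusted p ran from 0.000582 to 0.491. In the annotation 22.7% of its 50-base stretches also belong to another gene on the same strand, mostly a read-through gene. Over both strands 32.5% are shared, 11.5% with SRD5A3-AS1 on the opposite strand. The count of SRD5A3 is thus less certain than that of SRD5A1.

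The ratio between the members of this family needs no scaling of the libraries. Per kb of exon, SRD5A1 was 1.42 ± 0.060 times SRD5A3 with R1881 (range 1.33 to 1.51, n = 10) and 0.877 ± 0.030 times with enzalutamide (range 0.834 to 0.914, n = 5). The ranges did not overlap (two-sided exact permutation test of the log2 ratio, p = 0.000333, the smallest possible). Which of the pair was the more abundant with R1881 depended on the length used, while SRD5A3 was the higher with enzalutamide by either length. With the longest annotated transcript the ratios were 0.813 ± 0.034 and 0.502 ± 0.017. The fall of the ratio was the same with either length, since length cancels. SRD5A2, the third member and the main form in normal prostate, had no row and was not analysed here.

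Other dolichol genes were examined beside SRD5A3. Of 5 further genes on that list 3 were lower and none higher: DOLK, the dolichol kinase (61.5 ± 3.68 against 41.4 ± 3.44 CPM, log2 fold change -0.57), DOLPP1, which recycles dolichol (-0.31), and NUS1, a subunit of the enzyme that builds its chain (-0.27). DHDDS and DHRSX did not pass (limma adjusted p of 0.0884 and 0.914). The 3 of 5 called is near the share of all genes, of which 62.5% were called, 32.7% lower and 29.8% higher. Whether these few genes share a direction beyond that was not tested.

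**Figure D2:**
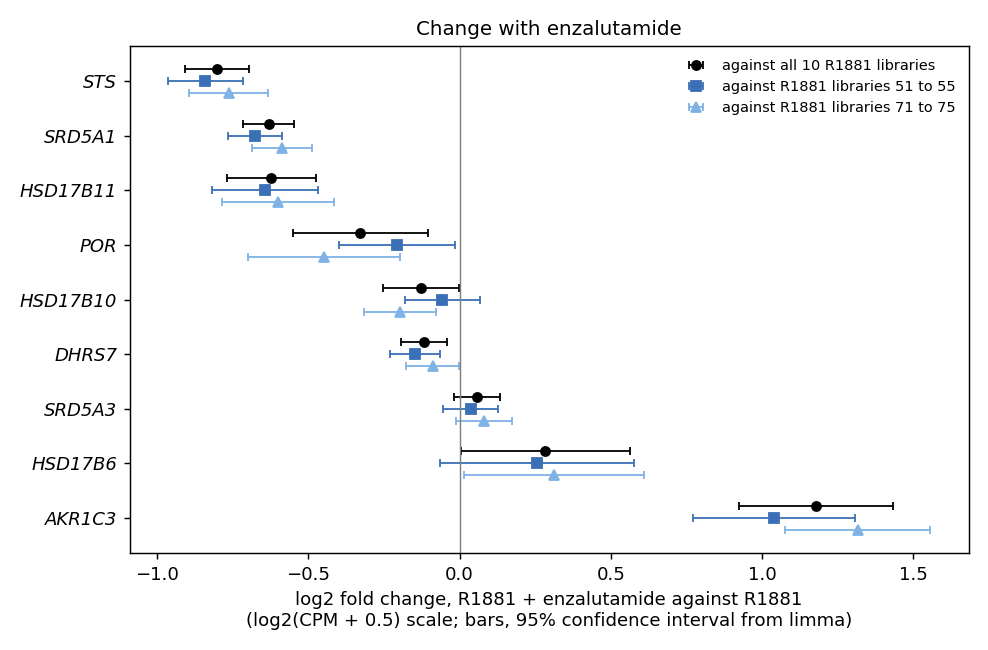
Log2 fold change of each enzyme gene with enzalutamide, on the log2(CPM + 0.5) scale, with its 95% confidence interval from limma, against all 10 R1881 libraries (black circles), libraries 51 to 55 (squares) or libraries 71 to 75 (triangles). STS, SRD5A1, HSD17B11 and AKR1C3 had intervals away from 0 against either set, while POR, HSD17B10 and DHRS7 lay closer to 0 and shifted between the sets.

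Of the 4 short-chain dehydrogenases in the set (HSD17B6, HSD17B10, HSD17B11 and DHRS7), HSD17B11 had the log2 fold change furthest from 0. This enzyme of lipid droplets and the endoplasmic reticulum oxidises 3α-androstanediol to androsterone, and its gene is on chromosome 4 (87336515 to 87391188, minus strand, 7 exons). With R1881 it ranged from 9.12 to 11.6 CPM (median 9.94), and with enzalutamide the replicates had 6.38, 5.81, 6.69, 7.19 and 5.69 CPM. No enzalutamide library reached the lowest R1881 library. HSD17B11 changed by a log2 fold of -0.62 (SE 0.071, 95% confidence interval -0.77 to -0.48, limma adjusted p = 1.41e-07, two-sided exact permutation p = 0.000333). Together with STS, SRD5A1 and AKR1C3, it made 4 of 9 enzymes whose groups did not overlap, 3 lower and 1 higher, where 37.2% of all tested genes did not overlap, 20.1% lower and 17.1% higher.

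DHRS7, a short-chain dehydrogenase of the endoplasmic reticulum with reported activity on steroids and retinoids, was the most abundant of the set (chromosome 14, 60144119 to 60169856, minus strand, 7 exons). It ranged from 336 to 391 CPM with R1881 (median 366) and had 347, 312, 351, 346 and 329 CPM in the enzalutamide replicates. The change was small, although 9 of 10 R1881 libraries were above all enzalutamide libraries. DHRS7 had a log2 fold change of -0.12 (SE 0.036, 95% confidence interval -0.19 to -0.04, limma adjusted p = 0.00762, two-sided exact permutation p = 0.00433). It was -0.025 (adjusted p = 0.522) with library totals of 1000000, and against libraries 71 to 75 alone it was -0.089 (adjusted p = 0.0783), in a range of 2.26e-06 to 0.522 over the alternatives. Of its 50-base stretches 24.7% are shared with PCNX4 on the opposite strand, so reads there could not be assigned to either gene by position alone if strand was not used. The study names a stranded library kit, but the use of strand in counting is not given. PCNX4, found under its older symbol PCNXL4, had 102 ± 5.62 and 106 ± 6.70 CPM.

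HSD17B10 is a mitochondrial enzyme that oxidises steroids and isoleucine products and is also a subunit of mitochondrial ribonuclease P (chromosome X, 53431258 to 53434370, minus strand, 6 exons). It ranged from 68.2 to 94.0 CPM with R1881 (median 81.7) and had 75.5, 80.7, 72.1, 70.0 and 70.8 CPM with enzalutamide. The enzalutamide libraries lay in the lower part of the R1881 range. The log2 fold change of -0.13 did not pass (SE 0.060, 95% confidence interval for the single gene -0.25 to -0.00, limma adjusted p = 0.0725, two-sided exact permutation p = 0.0799). Without R1881 replicate 7, R1881 replicate 9 or enzalutamide replicate 2, it passed as lower, with log2 fold changes from -0.16 to -0.14 and adjusted p from 0.0184 to 0.0425. Over the other alternatives the adjusted p of HSD17B10 ran from 0.00685 to 0.656. Of its partners in ribonuclease P, TRMT10C was lower (65.4 ± 4.47 against 55.8 ± 2.46 CPM, log2 fold change -0.23), and PRORP, matched as KIAA0391, was not called (6.51 ± 0.645 against 6.22 ± 0.640 CPM, limma adjusted p = 0.530).

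HSD17B6, which returns 3α-androstanediol to dihydrotestosterone, was scarce (chromosome 12, 56752161 to 56787790, plus strand, 5 exons). It had 4 to 21 reads with R1881 and 15 to 24 with enzalutamide. In CPM this was 0.265 to 0.926 (median 0.614) against 0.838, 0.698, 0.728, 0.898 and 0.941. All 5 enzalutamide libraries were above the R1881 median, but 3 R1881 libraries lay among them. The log2 fold change of 0.28 did not pass (SE 0.134, 95% confidence interval for the single gene 0.004 to 0.56, limma adjusted p = 0.0720, two-sided exact permutation p = 0.0526), and without R1881 replicate 9 it did (0.33, adjusted p = 0.0343). Over the other alternatives the adjusted p of HSD17B6 ran from 0.0311 to 0.155. The opposite-strand neighbour PRIM1 shares 3.37% of its 50-base stretches.

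The wider families of dehydrogenases held genes that were higher and genes that were lower. Of 6 other tested 17β-hydroxysteroid dehydrogenases, HSD17B4, the peroxisomal enzyme that also oxidises estradiol, was lower (521 ± 20.4 against 373 ± 16.7 CPM, log2 fold change -0.48). HSD17B12 (0.19), an enzyme of fatty acid elongation, and HSD17B14 (0.41) were higher, and HSD17B1, HSD17B7 and HSD17B8 did not pass. Of 15 other short-chain and retinol dehydrogenases 4 were lower and 9 higher. The 2 lists had 50.0% and 86.7% of these genes called, where 62.5% of all genes were. DHRS2 fell most (10.6 ± 1.20 against 3.53 ± 0.353 CPM, log2 fold change -1.46), and RDH12, a retinal reductase, rose most (0.836 ± 0.277 against 2.93 ± 0.432 CPM, 1.38). RDH10, which oxidises retinol, was lower (23.8 ± 1.10 against 17.4 ± 1.14 CPM, -0.44). HSD17B2, HSD17B3, HSD17B13, DHRS9, RDH5 and HSD11B1 had no row and were not analysed here.

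POR passes electrons from NADPH to the P450 enzymes of the endoplasmic reticulum, among them the steroid 17-hydroxylase CYP17A1. Its gene is on chromosome 7 (75899200 to 75986855, plus strand, 16 exons). It ranged from 39.2 to 63.8 CPM with R1881 (median 46.5) and had 31.4, 48.3, 39.5, 36.1 and 35.7 CPM with enzalutamide. Enzalutamide replicate 2 stood above the R1881 median while the other 4 were low, so the groups overlapped. For POR the log2 fold change was -0.33 (SE 0.106, 95% confidence interval -0.55 to -0.11, limma adjusted p = 0.0110, two-sided exact permutation p = 0.0270). Against libraries 51 to 55 alone it was -0.21 and did not pass (adjusted p = 0.0583), and against libraries 71 to 75 it was -0.45 (adjusted p = 0.00426), in a range of 0.000114 to 0.0722 over the alternatives.

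Relative to its counting error, POR varied most of the 9 among libraries of one treatment. Its coefficient of variation was 17.02% with R1881 and 16.6% with enzalutamide, where counting error alone gives 3.21% for the R1881 libraries. It has the highest GC content of the 9, 58.9% in its longest transcript. In each library, the GC trend was measured as Spearman's rho across genes between GC content and the deviation of the library from its group mean. R1881 replicates 5 and 6 had 0.56 and 0.73, and enzalutamide replicate 2 had 0.71, the highest of their groups. The same libraries had the highest POR of their groups, with 60.1, 63.8 and 48.3 CPM. A GC trend was also removed, an alternative chosen after seeing the data. It was fitted to deviations from the mean over all libraries of both treatments, so a GC-linked treatment difference was removed too. The fit covered 13790 of the 17046 genes, and the test did not count its degrees of freedom. With it POR changed by -0.29 (limma adjusted p = 0.000114), HSD17B10 by -0.12 (adjusted p = 0.0421, now past the threshold) and DHRS7 by -0.14 (adjusted p = 2.26e-06).

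**Figure D3:**
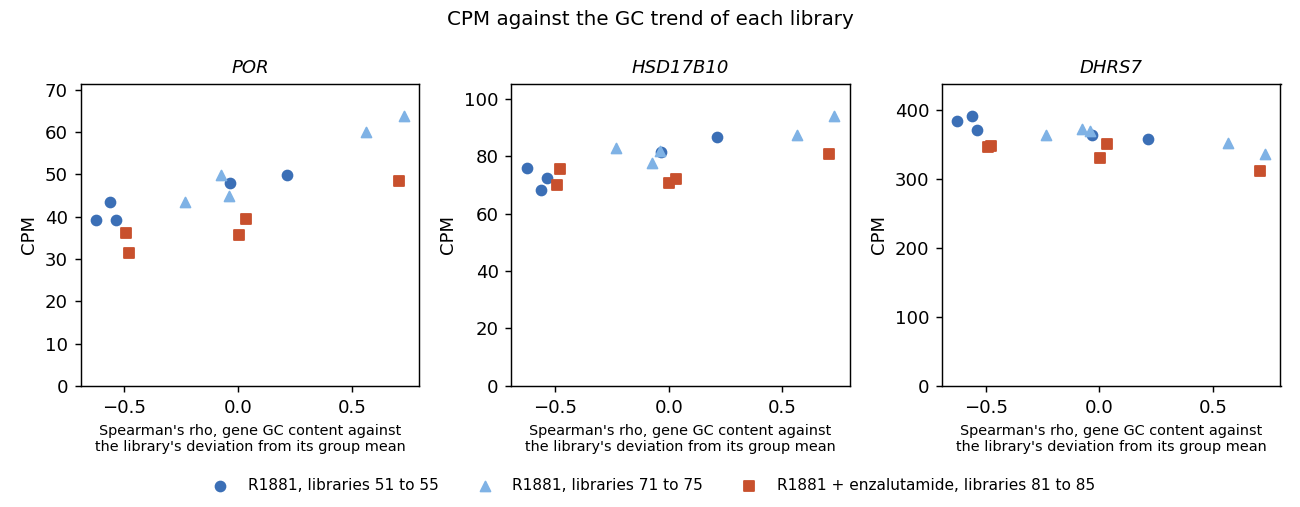
CPM of POR, HSD17B10 and DHRS7 in each library against the library's GC trend, Spearman's rho between gene GC content and the deviation from the group mean, with R1881 libraries as circles (51 to 55) and triangles (71 to 75) and enzalutamide libraries as squares. POR and HSD17B10 were highest in R1881 replicate 6 (63.8 and 94.0 CPM, trend 0.73) and in enzalutamide replicate 2 (48.3 and 80.7 CPM, trend 0.71), and DHRS7 was lowest there (336 and 312 CPM).

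Of the other electron donors 7 were tested, with 4 lower and 2 higher (85.7% called, where 62.5% of all genes were). The mitochondrial pair that serves the first step of steroid synthesis was higher: FDX1, adrenodoxin, had 35.8 ± 1.73 and 78.2 ± 3.47 CPM (log2 fold change 1.11), and FDXR, its reductase, 6.30 ± 1.32 and 11.5 ± 2.32 CPM (0.82). CYB5A, cytochrome b5, which aids the lyase step of CYP17A1, was lower (347 ± 11.3 against 228 ± 10.1 CPM, -0.61). CYP11A1, the side-chain cleavage enzyme that FDX1 feeds, was itself lower (2.94 ± 0.458 against 0.185 ± 0.075 CPM, -2.32). STARD3, a cholesterol carrier, was higher (27.2 ± 2.43 against 35.8 ± 2.76 CPM, 0.39). Of 12 genes listed for synthesis from cholesterol 8 had no row and were not analysed here, among them CYP17A1, HSD3B1, HSD3B2 and CYP19A1.

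At the other end of the route, the glucuronidation list had 3 of 8 genes lower and 3 higher. That is 75.0% called, where 62.5% of all genes were. UGT2B15 (169 ± 11.3 against 960 ± 38.2 CPM, log2 fold change 2.51) and UGT2B17 (222 ± 18.1 against 1149 ± 47.2 CPM, 2.37), which conjugate androgens, rose, and UGT2B28 fell (23.2 ± 1.68 against 4.69 ± 0.619 CPM, -2.19). These are close paralogues, and reads may have been divided among them. Of 7 uptake transporters listed 5 had no row and were not analysed here, among them SLCO1B3, SLCO2B1 and SLC10A6. The other 2 were tested: SLCO2A1 was lower (-1.34), and SLCO4A1 did not pass (-0.17, limma adjusted p = 0.253). Uptake of steroids itself was not measured. Over the union of these lists 70 genes were tested, 26 lower and 24 higher, or 21 lower and 29 higher with library totals of 1000000. Without the 9 enzymes 44 of 61 passed (72.1%), beside the 62.5% of all genes, with 21 lower, 23 higher and a median log2 fold change of 0.02.

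**Figure D4:**
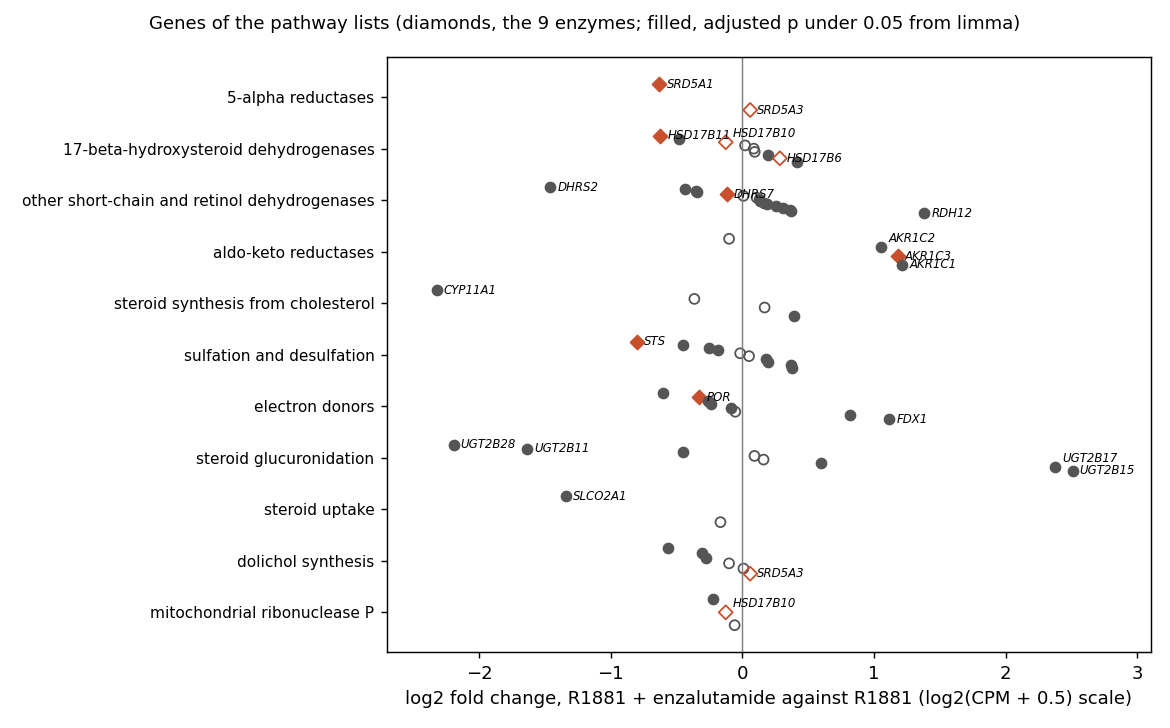
Log2 fold change with enzalutamide, on the log2(CPM + 0.5) scale, of each tested gene of the pathway lists, with the 9 enzymes as diamonds, other genes as circles, and filled symbols for an adjusted p under 0.05 from limma. Within most lists genes lay on both sides of 0, from CYP11A1 at -2.32 to UGT2B15 at 2.51, and the 3 tested AKR1C genes lay together between 1.05 and 1.21.

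Levels of different genes were compared per kb of merged exon. With R1881 the order was DHRS7 (112.6 ± 4.79 CPM per kb), HSD17B10 (28.7 ± 2.69), SRD5A1 (9.36 ± 0.457), POR (7.74 ± 1.32), SRD5A3 (6.59 ± 0.214), HSD17B11 (4.31 ± 0.355), STS (2.98 ± 0.154), AKR1C3 (0.277 ± 0.075) and HSD17B6 (0.264 ± 0.089), each a mean ± SD over 10 libraries. Ranges over libraries overlapped between SRD5A1 and POR, between POR and SRD5A3, and between AKR1C3 and HSD17B6, so the order within these pairs was not set by the data. With enzalutamide AKR1C3 had 0.776 ± 0.060 and HSD17B6 0.361 ± 0.046 CPM per kb, while SRD5A3, at 6.87 ± 0.295, was above SRD5A1 at 6.02 ± 0.246. With the longest transcript as the length, SRD5A3 (12.5) and POR (15.9) were above SRD5A1 (10.2 CPM per kb with R1881).

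**Figure D5:**
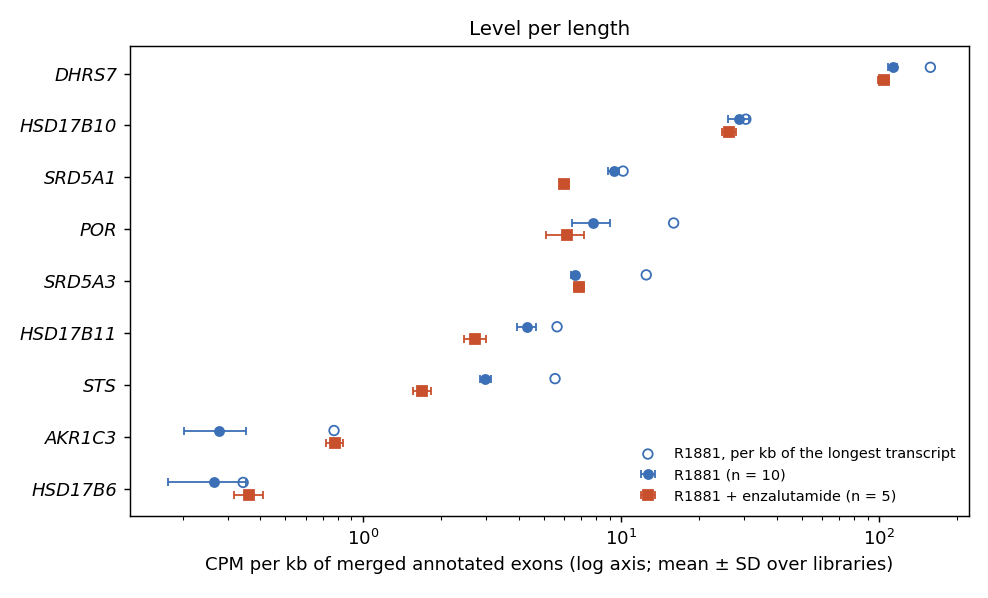
Level of each enzyme gene in CPM per kb of merged exons, on a log axis, as mean ± SD over R1881 libraries (circles) and R1881 + enzalutamide libraries (squares), with the R1881 level per kb of the longest transcript as open circles. The levels with R1881 run from 112.6 for DHRS7 to 0.264 CPM per kb for HSD17B6, and the open circles show how far the choice of length moves SRD5A3, POR, STS and AKR1C3.

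The R1881 libraries were also compared with each other. Between libraries 71 to 75 and 51 to 55, none of the 9 enzymes passed the limma test, where 3.29% of 16810 genes did, and none was called by edgeR or DESeq2. At an unadjusted p under 0.05 POR and HSD17B10 passed, 2 of 9 by limma as well as by edgeR and DESeq2, where 24% of all genes did by limma. The differences furthest from 0 were -0.28 for AKR1C3 (1.24 ± 0.312 CPM in 51 to 55 and 0.925 ± 0.184 in 71 to 75, limma adjusted p = 0.254) and 0.24 for POR (43.9 ± 4.89 and 52.4 ± 9.06 CPM, adjusted p = 0.161). STS, SRD5A1, HSD17B11 and AKR1C3 passed against each set of R1881 libraries alone, with log2 fold changes of -0.84 and -0.76, -0.68 and -0.59, -0.65 and -0.60, and 1.04 and 1.32 in that order.

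The genes most alike in pattern to the enzymes at the ends of the range were named by Pearson's r of log2(CPM + 0.5) over the 15 libraries, among genes averaging 5 CPM or more. For STS they were RAB29 (0.993), REPS2 (0.993) and SEC24B (0.992). For AKR1C3 they were ERMAP, TCF7L2 and LHFPL2 (each 0.977). The points share the division into 2 treatments, and the values of r describe these libraries without a test.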

How the data were processed

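LNCaP cells gave 15 libraries of polyadenylated RNA, 10 with R1881 and 5 with R1881 + enzalutamide, grouped by their sample titles, which the methods of the study contradict as to which treatment had more. The submitters' processing notes name bcl2fastq 2.17, STAR, featureCounts (Subread) and GRCh38. Other versions, the annotation, the use of strand in counting and the rule of scaling: not given in the sources used here. What the authors deposited is a normalized signal per gene, CPM in the methods, whose columns sum to 985580 to 1078567. All values (100%) came out as whole reads within 0.01 reads, so the reads could be recovered. No column lacked a sample. In each of 55 pairs of replicates the counts differed beyond sampling noise (chi-square).

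Genes averaging 0.5 CPM or more were tested with limma 3.58.1 (log2(CPM + 0.5), mean-variance trend, a term for treatment alone, Benjamini-Hochberg adjusted p under 0.05) in R 4.3.3. edgeR 4.0.16 and DESeq2 1.42.0 were run on the recovered reads as alternatives. Single genes were compared by a two-sided exact permutation test. Other alternatives were the pseudocount (0.1 and 1), the filter (none, and 5), the scaling (TMM, median-ratio, totals of 1000000), a replicate block, each R1881 series alone, the length used and each library left out. Removal of the trend on GC content (spline with 5 degrees of freedom, fitted to deviations from the mean over all libraries) was added after the data were seen. Exon lengths and positions are from GENCODE v44 on GRCh38. The limma and edgeR tests were also run on simulated reads, in which few genes changed, as many up as down. Such reads cannot check the scaling where most genes differ.

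The members and the gene lists were chosen with earlier results of these data known. Named are the 9 enzymes, 4 androgen targets, up to 3 genes per pathway list with the largest absolute log2 fold change (adjusted p under 0.05, mean CPM of at least 1), all genes of lists of up to 3, and the 3 genes most like the members with the lowest and highest log2 fold change. Other list members and neighbours that overlap an enzyme gene are named where a count or a limit needs them. The number of libraries and, for AKR1C3 and HSD17B6, counting error limit the precision.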

Additional observations from a re-analysis of the deposited data

Results flagged for a closer look

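Of 80 groups of values examined, in 4 a library stood apart from the rest of its group by Dixon's 95% criterion, and chance alone gives about 4. Enzalutamide replicate 5 had 25416052 reads, where the other enzalutamide libraries had at most 22329140. STARD3 was 33.0 CPM in R1881 replicate 6 and 24.6 to 28.9 CPM in the other R1881 libraries. FDXR was 9.63 CPM in the same library and 5.07 to 7.17 CPM in the others, and this library had the highest GC trend of its group (0.73). SULT2B1 was 5.31 CPM in enzalutamide replicate 1 and 6.23 to 6.51 CPM in the other 4. None of the 9 enzymes had such a library in either treatment.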

How the results depend on the processing

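STS, SRD5A1 and HSD17B11 stayed lower and AKR1C3 stayed higher, past the threshold, in every alternative that gave a value. With library totals of 1000000, SRD5A3 (0.15) and HSD17B6 (0.33) passed, and POR (-0.24) and DHRS7 (-0.025) did not. SRD5A3 passed with edgeR (0.10), and HSD17B10 passed with the trend on GC content removed (-0.12) and against libraries 71 to 75 (-0.20), where DHRS7 did not (-0.089). POR did not pass against libraries 51 to 55 (-0.21). Same-numbered replicates of the treatments did not deviate together (correlations of -0.068 to 0.074). Whether same-numbered libraries shared a culture cannot be decided from this, since the deviations also followed the GC trend of each library. By the final digit of the library number the correlations ran from -0.42 to 0.67. In a replicate block R1881 replicates 6 to 10, whose numbers no enzalutamide library has, add nothing to the fold change. With this block HSD17B6 (0.41) and HSD17B10 (-0.17) passed, 8 enzymes were called and 10043 genes in all. With a block by final digit neither passed (adjusted p = 0.0574 and 0.0875), and 6 enzymes and 10720 genes were called. With single libraries left out HSD17B6 ranged from 0.23 to 0.33 and HSD17B10 from -0.16 to -0.10. Between the R1881 series, where no enzyme passed, SRD5A3 (0.025) and HSD17B11 (0.061) turned sign with the trend on GC content removed, and with single libraries left out HSD17B6 ranged from -0.19 to 0.059 and HSD17B11 from -0.088 to 0.00048. With the longest transcript as length, levels with R1881 were 157.5 CPM per kb for DHRS7, 15.9 for POR, 12.5 for SRD5A3, 10.2 for SRD5A1, 5.64 for HSD17B11, 5.54 for STS and 0.771 for AKR1C3. From 5 to 8 enzymes and from 8297 to 10929 genes were called over the alternatives. The 8297 were of 12164 genes tested with a filter at a mean CPM of 5, where 5 enzymes were called. The 10929 were of 17046 genes tested with library totals of 1000000. HSD17B6 and AKR1C3 gave no value with a filter at a mean CPM of 5, nor in DESeq2 between the R1881 series. The cause of these shifts was not tested, and depth limits what HSD17B6 can show.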

Other observations

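Protein-coding genes that overlap an enzyme gene on the opposite strand, taken by position, had their own values. TMEM120A, at the end of POR, had 39.9 ± 3.92 CPM with R1881 and 26.4 ± 2.04 CPM with enzalutamide (SD, n = 10 and 5, log2 fold change -0.58, limma adjusted p = 1.54e-07). PUDP, at the start of STS, had 22.7 ± 1.42 and 16.2 ± 2.07 CPM (-0.48, limma adjusted p = 2.29e-06). PRIM1, the small subunit of DNA primase, at the start of HSD17B6, had 15.9 ± 1.54 and 10.5 ± 1.30 CPM (-0.58, limma adjusted p = 1.32e-06). These 3 neighbours were lower in every enzalutamide library than in every R1881 library, and PCNX4, opposite DHRS7, did not pass (0.06, limma adjusted p = 0.238). The libraries were made with a stranded kit by the methods of the study. Whether strand was used in counting is unknown here, and its part in these values was not tested.

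Among list members outside the rule for named genes, chosen after their values were seen, RDH11, a retinal reductase, rose from 507 ± 27.4 to 604 ± 30.5 CPM (log2 fold change 0.25). UGDH, which makes the glucuronic acid donor, fell from 104 ± 2.08 to 76.0 ± 4.34 CPM (-0.45) in the libraries in which UGT2B15 and UGT2B17 rose.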
